A study of Mus musculus with 165 samples.

Results

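The mouse Hox genes lie in 4 clusters, HoxA, HoxB, HoxC and HoxD, and the compartment score of these clusters is described here across myeloid progenitors, neutrophils and activated neutrophils. The clusters were taken by position, as the 25 kb bins that start in fixed windows of the mm9 genome: 52.05 to 52.25 Mb of chromosome 6 for HoxA, 96.00 to 96.25 Mb of chromosome 11 for HoxB, 102.70 to 102.90 Mb of chromosome 15 for HoxC and 74.45 to 74.65 Mb of chromosome 2 for HoxD. These windows hold 34 of the 100644 bins that have a value in all 4 tracks, 8 each for HoxA, HoxC and HoxD and 10 for HoxB. Hoxa9, Hoxb8, Hoxc8 and Hoxd9 stand for the clusters in which they lie, since a bin spans several genes and the score is not measured per gene.

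The series asks how calcium signalling changes the folding of the genome in neutrophils. In situ Hi-C ligates DNA ends that lie close together in the nucleus, and the first principal component (PC1) of the contact matrix sorts each chromosome into compartment A (positive here, active chromatin by convention) and compartment B (negative). The sign was taken as deposited and was not checked against genes in mm9. Of the 165 samples of the series, 17 are Hi-C libraries, and the other 148 were not analysed here. The libraries enter 4 tracks, each the single track of its group.

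Every group was made from ECOMG cells, a C57BL/6 myeloid progenitor line that needs GM-CSF, and all groups carry the same genotype label. Estradiol keeps the cells undifferentiated, and 5 days without it turned them into neutrophils in culture, so that these are neutrophils of a cell line and not of an animal. The progenitor track pools 7 libraries of untreated progenitors. The untreated neutrophil track pools 8 libraries of 7 replicates, as replicate 7 has a pair of PCR replicates. The other two tracks are neutrophils given 20 uM of the calcium ionophore A23187, with calcium chloride at 1 mM, for 15 min (1 sample, labelled replicate 2) or for 30 min (1 sample, labelled replicate 1). Markers of the progenitor and neutrophil state are not measured by PC1 and were not checked.

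Hox genes encode homeodomain transcription factors that give positional identity along the body axis, and within a cluster they lie in the order in which they are used along that axis. They are a classic target of Polycomb repression, which marks silent Hox chromatin, and of the trithorax and MLL proteins, which keep it active. In blood, Hoxa9 is active in stem and progenitor cells and declines as myeloid cells mature, and forced Hoxb8 holds myeloid progenitors undifferentiated in culture. Hoxc8 and Hoxd9 are known mainly for patterning the trunk and limbs.

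The RefSeq annotation of GRCm38.p6 lists 39 Hox genes, 11 in HoxA, 10 in HoxB, 9 in HoxC and 9 in HoxD. HoxA lies between Skap2 and Evx1, with Hoxa13 at its higher end, beside Evx1. The other three run the opposite way, with the group 13 gene at the lower end. HoxB goes from Hoxb13 to Hoxb1 between Ttll6 and Skap1, HoxC from Hoxc13 to Hoxc4 between Calcoco1 and Smug1, and HoxD from Hoxd13 to Hoxd1 between Evx2 and Mtx2. Since the PC1 bins are in mm9, the annotation served for names and order, and no gene was placed in a bin.

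The clusters also share microRNAs, small RNAs that repress messages matched by their seed. The mature sequences of the families that recur between clusters are shown because they tie the 4 clusters, which arose as copies of an ancestral cluster, to one another. In these RefSeq sequences, written 5′ to 3′, capitals mark the seed, bases 2 to 8.
miR-196a-5p: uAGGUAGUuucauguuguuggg
miR-196b-5p: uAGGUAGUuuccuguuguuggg
miR-10a-5p: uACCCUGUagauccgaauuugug
miR-10b-5p: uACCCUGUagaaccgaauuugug
miR-196a-5p is encoded in both HoxB and HoxC and miR-196b-5p in HoxA, and they share the seed AGGUAGU. miR-10a-5p lies in HoxB and miR-10b-5p in HoxD, and they share the seed ACCCUGU. Among 1679 mature miRNAs of the table, each of these seeds was found in 2. HoxC also encodes miR-615-3p and miR-615-5p, which share a seed with no other miRNA of the table.

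The promoters of Hoxa9, Hoxb8 and Hoxd9, from 250 bases before to 50 after the gene's start, are shown because Hox promoters range from CpG-poor to CpG-dense within a single cluster, whereas PC1 averages over 50 kb. They are RefSeq sequences of GRCm38.p6, 5′ to 3′ on the gene's strand, with CG dinucleotides in capitals. Their coordinates belong to that build and cannot be set beside the mm9 bins.
Hoxa9 promoter, chr6:52227321-52227620, minus strand: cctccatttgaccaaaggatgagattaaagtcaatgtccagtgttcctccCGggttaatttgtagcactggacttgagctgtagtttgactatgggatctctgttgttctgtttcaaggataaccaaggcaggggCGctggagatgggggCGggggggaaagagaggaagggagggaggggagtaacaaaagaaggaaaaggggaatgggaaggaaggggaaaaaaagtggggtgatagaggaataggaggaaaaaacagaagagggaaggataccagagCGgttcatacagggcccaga
Hoxb8 promoter, chr11:96281655-96281954, plus strand: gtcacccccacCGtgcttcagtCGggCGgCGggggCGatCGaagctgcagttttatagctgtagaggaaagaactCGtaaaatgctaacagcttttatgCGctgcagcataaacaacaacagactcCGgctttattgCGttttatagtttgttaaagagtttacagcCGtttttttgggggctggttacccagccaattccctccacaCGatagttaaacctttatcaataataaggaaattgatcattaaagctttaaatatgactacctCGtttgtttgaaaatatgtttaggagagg
Hoxd9 promoter, chr2:74697513-74697812, plus strand: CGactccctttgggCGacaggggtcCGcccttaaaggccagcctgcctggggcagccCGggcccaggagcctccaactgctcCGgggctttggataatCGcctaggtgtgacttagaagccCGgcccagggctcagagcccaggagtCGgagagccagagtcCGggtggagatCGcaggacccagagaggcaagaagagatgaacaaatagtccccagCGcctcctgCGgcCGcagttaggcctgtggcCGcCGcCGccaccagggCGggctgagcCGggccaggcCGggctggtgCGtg
The Hoxa9 promoter held 4 CG dinucleotides, the Hoxb8 promoter 13 and the Hoxd9 promoter 20. Over the 22 Hox genes with a promoter in the table the number ran from 4 to 45, with a median of 13.5, and Hoxa13 had the 45. Where a gene had more than 1 listed start, the first was counted. Hoxd11 had 4 at the first and 25 at the other, and Hoxa10 had 12 and 21. Over 27018 genes the median was 7, with quartiles of 3 and 21. All 22 of the Hox promoters and 94.2% of those of all genes held at least 1 CG.

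The scores of each chromosome have a mean of 0 and an SD of 1.00 in each track, so a value gives the distance from the chromosome's mean in SDs and has no other unit. Neighbouring bins share reads, and the spread given below is the SD over the bins of a cluster in 1 track. It is not a replicate error. There is no replicate track and no count of reads, so no difference below has a test, and read depth is unknown. Progenitor and untreated libraries are labelled as re-analysed and were sequenced on another instrument model than the activated ones, so treatment and sequencing batch cannot be told apart in comparisons with activated cells. Between 15 and 30 min, time and replicate number cannot be told apart.

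In progenitors all 34 bins of the 4 clusters lay in A. In untreated neutrophils the mean PC1 of each cluster was lower, and 28 of the 34 bins were still positive. HoxA, HoxB and HoxC were higher than in untreated neutrophils in both activated tracks. HoxD was higher at 15 min, and at 30 min had nearly the untreated mean, with some bins lower and others higher.

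HoxA, which holds Hoxa9, averaged 1.17 ± 0.160 (SD over 8 bins) in progenitors, with bins from 0.990 to 1.39. In untreated neutrophils it averaged 0.578 ± 0.30, with bins from 0.274 to 0.969. It was at 0.991 ± 0.121 at 15 min, from 0.868 to 1.17, and at 1.17 ± 0.153 at 30 min, from 0.971 to 1.33. The highest untreated bin was below the lowest progenitor bin, and 30 min differed from progenitors by less than the spread of the difference over bins (-0.00256 ± 0.0479), but by -0.0844 with the tracks quantile-normalized to the untreated one. As a rank, the cluster mean was above 79.4% of the bins of chromosome 6 in progenitors, 69.8% in untreated neutrophils, then 73.8% at 15 min and 78.1% at 30 min.

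HoxB, which holds Hoxb8, averaged 0.885 ± 0.0980 (SD over 10 bins) in progenitors and 0.453 ± 0.203 in untreated neutrophils. At 15 min it averaged 0.858 ± 0.154 and at 30 min 1.04 ± 0.0511. The bins ran from 0.736 to 1.05 in progenitors, from 0.247 to 0.844 in untreated neutrophils, from 0.709 to 1.12 at 15 min and from 0.953 to 1.10 at 30 min. The untreated bins overlapped with those of progenitors and of 15 min, and lay below all bins of 30 min. Progenitors and 15 min differed by less than the spread over bins (-0.0267 ± 0.0795), but by -0.187 with the chromosome's median as zero. At 30 min each of the 10 bins was above its progenitor value, by 0.157 ± 0.0914 on average. The mean was above 68.0% of the bins of chromosome 11 in progenitors, 59.2% in untreated neutrophils, then 67.1% at 15 min and 70.2% at 30 min.

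HoxC, which holds Hoxc8, had the largest difference between progenitors and untreated neutrophils of the 4 clusters. It averaged 1.10 ± 0.210 (SD over 8 bins) in progenitors, from 0.772 to 1.34, and 0.222 ± 0.334 in untreated neutrophils, from -0.226 to 0.720. It averaged 0.795 ± 0.154 at 15 min, from 0.590 to 1.01, and 1.22 ± 0.154 at 30 min, from 0.908 to 1.41. Each untreated bin was below every progenitor bin, and below every bin of 30 min. The order was 30 min, progenitor, 15 min, untreated, and the first pair differed by 0.122 ± 0.102 over the bins. With the chromosome's median as the zero that difference turned to -0.0117. The mean was above 76.4% of the bins of chromosome 15 in progenitors, 61.9% in untreated neutrophils, then 68.1% at 15 min and 79.5% at 30 min.

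HoxD, which holds Hoxd9, averaged 0.831 ± 0.271 (SD over 8 bins) in progenitors, with bins from 0.581 to 1.34. In untreated neutrophils it averaged 0.200 ± 0.694, and its bins spanned 1.33 to -0.441, the widest range of any cluster and track here. It averaged 0.572 ± 0.315 at 15 min, from 0.265 to 1.14, and 0.186 ± 0.230 at 30 min, from -0.0502 to 0.614. The bins of the 4 tracks overlapped, and in each track the first bin was the highest. Untreated and 30 min had nearly the same mean with different shapes, and their difference was -0.0140 ± 0.489 over the bins. The mean was above 69.6% of the bins of chromosome 2 in progenitors, 59.5% in untreated neutrophils, then 63.1% at 15 min and 57.8% at 30 min.

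**Figure D1:**
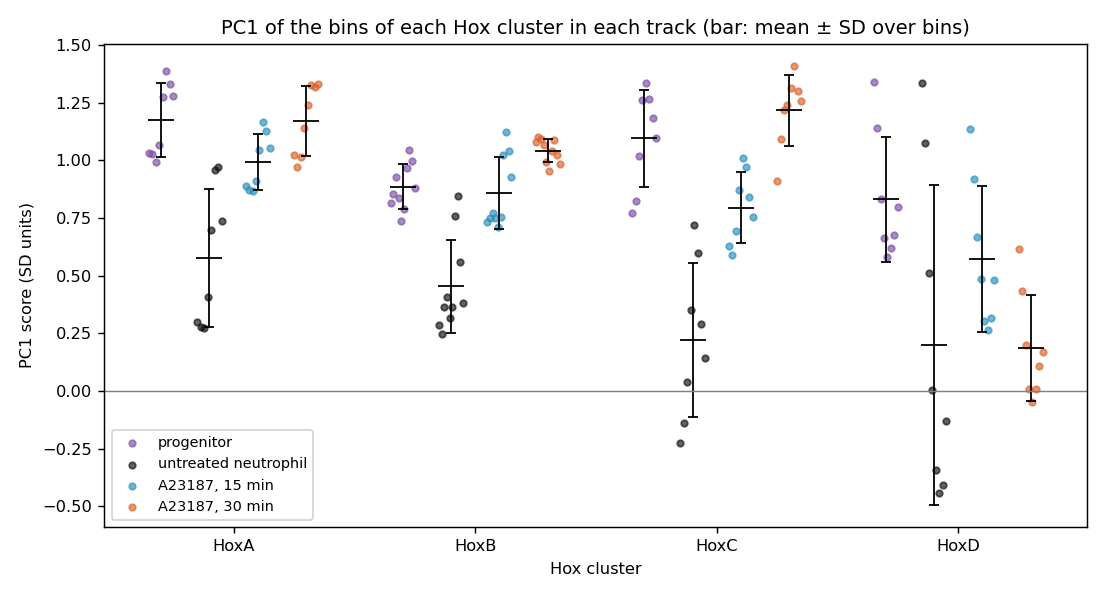
PC1 score (vertical axis, in SDs of the chromosome) of each 25 kb bin (points, in genomic order within a group) of HoxA, HoxB, HoxC and HoxD in the 4 tracks, with black bars for the mean and SD over bins. The untreated mean (0.578, 0.453 and 0.222) is the lowest of the 4 tracks in HoxA, HoxB and HoxC, while in HoxD untreated (0.200) and 30 min (0.186) lie side by side.

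The slope within HoxD differed between tracks. The first bin, chr2:74450001-74475000, on the side of Evx2 and Hoxd13, had 1.34 in progenitors, 1.33 in untreated neutrophils, then 1.14 at 15 min and 0.614 at 30 min. The sixth bin, chr2:74575001-74600000, had 0.621, -0.441, 0.265 and 0.00865 in the same order. At 30 min the first bin was thus far below its untreated value and the sixth above it. From the fifth to the eighth bin, toward Hoxd1, the untreated values were -0.342, -0.441, -0.409 and -0.131. Those bins had 0.581, 0.621, 0.675 and 0.799 in progenitors. At 30 min they were near zero, at -0.0502, 0.00865, 0.107 and 0.168.

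In HoxA, HoxB and HoxC a high was found inside the cluster between untreated lows. For HoxA the low was 0.274 in chr6:52100001-52125000 and the high 0.969 in chr6:52200001-52225000. For HoxB they were 0.247 in chr11:96025001-96050000 and 0.844 in chr11:96175001-96200000. For HoxC the low of -0.226 lay in chr15:102700001-102725000 and the high of 0.720 in chr15:102800001-102825000. A further low stood just beyond each window on its higher side, with 0.323 for HoxA at 162.5 kb from the cluster's middle, 0.129 for HoxB at 237.5 kb and 0.108 for HoxC at 112.5 kb. The lowest bins of progenitors were less deep, at 0.990 in HoxA, 0.736 in HoxB and 0.772 in HoxC.

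**Figure D2:**
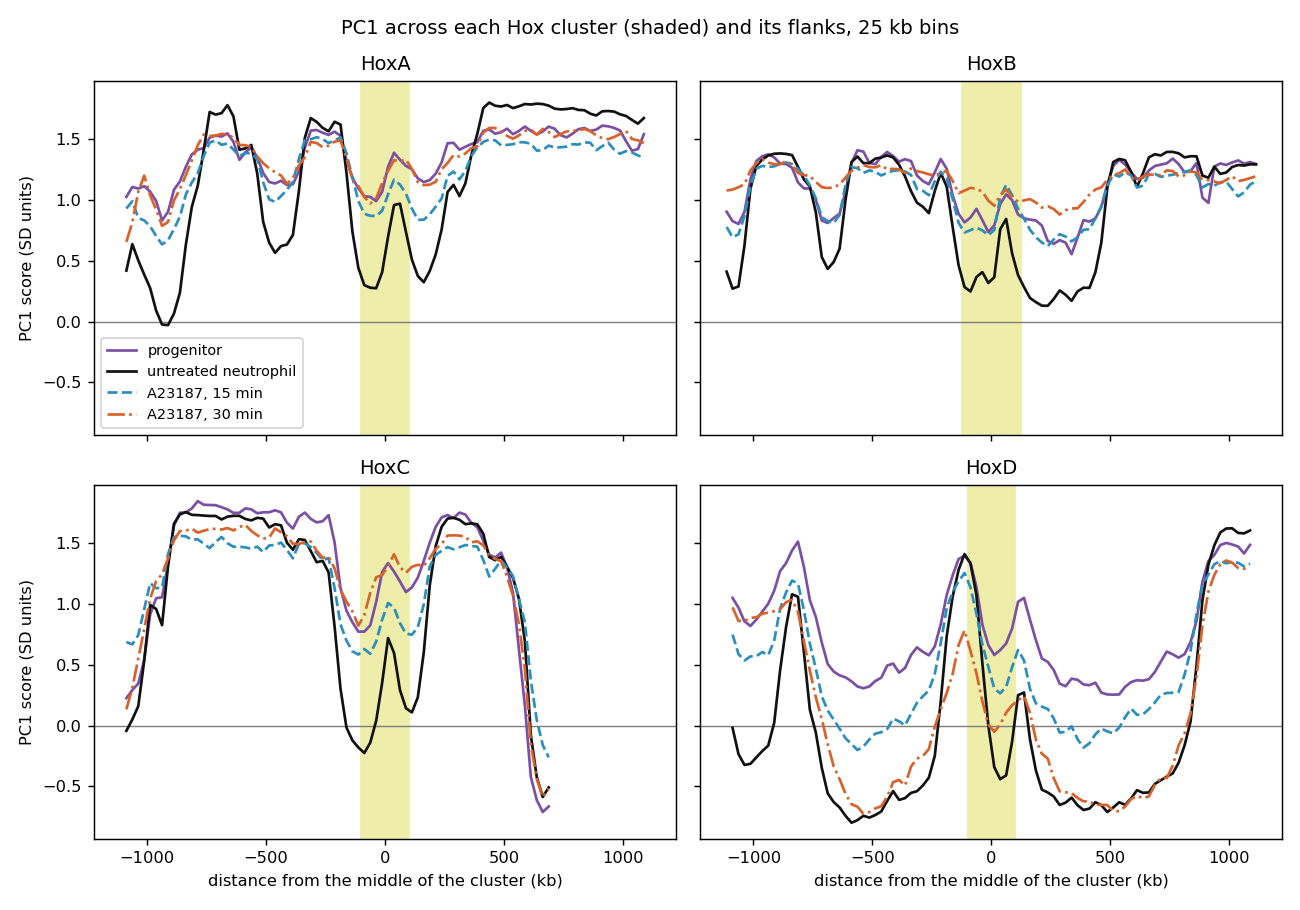
PC1 score (vertical axis, in SDs of the chromosome) of 25 kb bins against distance in kb from the middle of each Hox cluster, for the 4 tracks, with the cluster window shaded and the flanks drawn to 1 Mb, or to the chromosome's end for HoxC. The untreated line dips below the other lines at HoxA (lowest bin 0.274), HoxB (0.247) and HoxC (-0.226), and around HoxD it runs below zero on both sides of a high of 1.41.

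All 34 bins were lower in untreated neutrophils than in progenitors, and 22 of them by at least 0.5, against 7.53% of all bins of the genome. The mean change from progenitor to untreated neutrophil was -0.596 ± 0.144 at HoxA, -0.432 ± 0.136 at HoxB, -0.874 ± 0.147 at HoxC and -0.631 ± 0.443 at HoxD (SD over bins). Changes of at least 0.5 downward were seen in 6 of 8 bins of HoxA, 3 of 10 of HoxB, 8 of 8 of HoxC and 5 of 8 of HoxD. No bin was higher by 0.5 or more, against 5.68% of all bins. Since the clusters started high, bins of the genome with a progenitor PC1 of at least 0.5 are the nearer background: 14.6% of 34954 such bins were lower by at least 0.5, with a median change of 0.00102. The share was 25.1% on chromosome 6, 5.62% on chromosome 11, 10.6% on chromosome 15 and 12.7% on chromosome 2. All 34 Hox bins were above that progenitor level.

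Set among windows of the same number of bins, a change as far down as that of HoxC was found in 1.44% of the windows of the genome and 0.30% of those of chromosome 15. For HoxA the shares were 4.65% of the genome and 9.94% of chromosome 6, for HoxB 7.94% of the genome and 4.39% of chromosome 11, and for HoxD 4.09% of the genome and 4.48% of chromosome 2. Windows overlap and are no test. Here and below they include the cluster's own window and its shifted copies, and they were not matched on progenitor level. HoxC thus stood at the far end of its chromosome, and HoxA did not, as chromosome 6 had many windows that were as much lower.

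From untreated neutrophils to 15 min the mean change was 0.413 ± 0.180 at HoxA, 0.405 ± 0.0923 at HoxB, 0.573 ± 0.184 at HoxC and 0.372 ± 0.384 at HoxD. The bins of HoxA, HoxB and HoxC were all higher at 15 min, while 6 bins of HoxD were higher and 2 were lower. Of the 34 bins, 16 were higher by at least 0.5, against 6.82% of all bins, and 0 were lower by that much, against 1.44%. The share higher by at least 0.5 was 8.26% among bins of the genome with a progenitor PC1 of at least 0.5, and 19.2% on chromosome 6. In the flanks it was 80 of 304 bins (26.3%), and around HoxD 72.5% of the flank bins against 50% of its own. This count depends on the scale: with the chromosome's median as zero, or with the tracks brought to the untreated distribution, it was 3. With the median as zero, the change at HoxA was 0.112, at HoxB 0.319, at HoxC 0.266 and at HoxD 0.175, each still upward. Windows that changed as far up made 7.94% of the genome for HoxA, 7.76% for HoxB, 3.57% for HoxC and 9.54% for HoxD.

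The clusters parted at 30 min. From untreated neutrophils to 30 min the mean change was 0.593 ± 0.161 at HoxA, 0.589 ± 0.204 at HoxB and 0.995 ± 0.217 at HoxC, with each bin higher, against -0.0140 ± 0.489 at HoxD, with 5 bins higher and 3 lower. Of the 34 bins, 22 were higher by at least 0.5, against 7.62% of all bins, and 1 of these was in HoxD. Among bins of the genome with a progenitor PC1 of at least 0.5 the share was 13.2%, on chromosome 6 it was 16.9%, and in the flanks of the clusters it was 56 of 304 bins (18.4%). The 2 bins that were lower by at least 0.5, against 3.73% of all bins, were both in HoxD. A change as far up as that of HoxC was found in 0.429% of the windows of the genome and 0.175% of those of chromosome 15. The shares of the genome were 4.09% for HoxA and 3.76% for HoxB. The comparisons with 15 and with 30 min share the untreated track, so a low untreated value enters both, and it enters the comparison with progenitors as well.

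Between 15 and 30 min, a comparison without the untreated track, HoxC was higher at 30 min by 0.422 ± 0.0946, and HoxA and HoxB by 0.180 ± 0.0561 and 0.184 ± 0.161. HoxD changed by -0.386 ± 0.118, with all 8 bins lower. The flanks of HoxD changed by -0.357 between these times, so that the cluster minus its flanks changed by -0.0293. A change as far up as that of HoxC was seen in 3.01% of windows of the genome, and one as far down as that of HoxD in 6.25%. Between progenitors and 30 min, HoxD changed by -0.645 ± 0.0508 in a nearly parallel shift of its 8 bins, which 0.792% of the windows of the genome matched or passed. Its flanks changed by -0.680 in the same comparison, so that the cluster minus its flanks changed by 0.0345. The corresponding changes were -0.00256 ± 0.0479 at HoxA, 0.157 ± 0.0914 at HoxB and 0.122 ± 0.102 at HoxC. Progenitors and 15 min differed by -0.182 ± 0.0423 at HoxA, -0.0267 ± 0.0795 at HoxB, -0.301 ± 0.0780 at HoxC and -0.259 ± 0.0788 at HoxD.

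**Figure D3:**
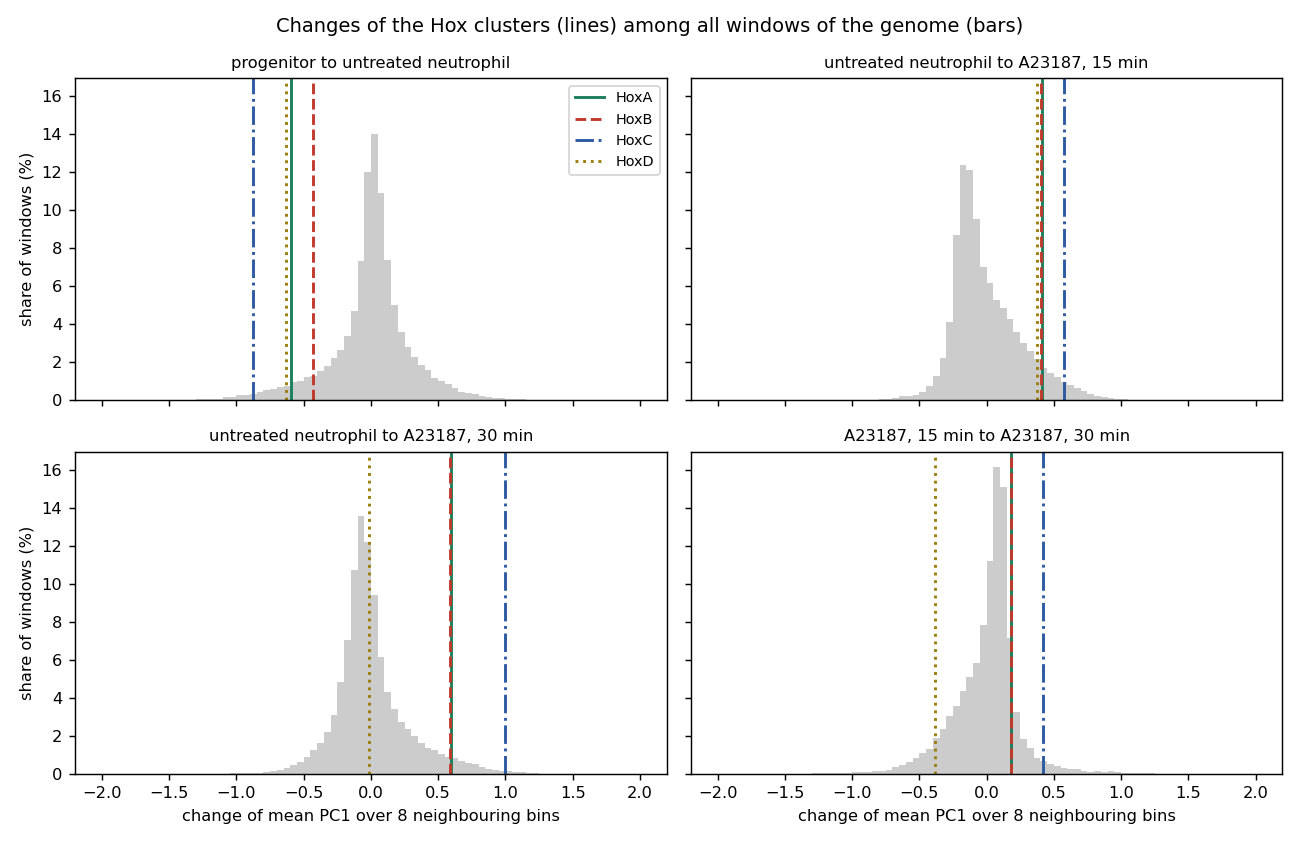
Share in percent (vertical axis) of all windows of 8 neighbouring bins in the genome by their change of mean PC1 (horizontal axis, bars), with lines for the change of each Hox cluster, in 4 comparisons. The HoxB line is a mean over 10 bins. From untreated to 30 min HoxC (0.995) lies at the far right and HoxD (-0.0140) in the middle of the bars.

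The untreated track was the lowest of the 4 in 31 of the 34 bins, against 21% of all bins. These were all bins of HoxA, HoxB and HoxC and 5 of the 8 bins of HoxD. In the other 3 bins of HoxD, on the side of Evx2, the 30 min track was the lowest. With the chromosome's median as zero the untreated track was the lowest in 27 of the 34 bins, and with quantile normalization in 30. The share of all bins includes those in B, and the shares of flank bins and of bins with a like progenitor level were not computed. Flank bins went both ways. The untreated track was the lowest of the 4 at chr6:51225001-51250000 and the highest at chr6:51475001-51500000. Beside HoxD it had the lowest mean over chr2:73800001-74325000 and over chr2:74700001-75375000. The count is thus not shown to be particular to the Hox windows.

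A switched bin is one that crossed zero together with at least 1 neighbour, by no less than 0.5 of the root mean square PC1 in the track it is compared from. From progenitor to untreated neutrophil 6 of the 34 bins switched from A to B, 2 in HoxC and 4 in HoxD, against 3.13% of all bins. Only a bin in A can do so, and all 34 Hox bins were in A in progenitors, against 42.7% of all bins. None switched from B to A, which is the rule's outcome where every progenitor bin is in A (1.64% of all bins did). From untreated neutrophils to 15 min the same number, 6, switched from B to A, against 3.29% of all bins, again 2 in HoxC and 4 in HoxD. These 6 were the only Hox bins in B in untreated neutrophils, so no other could switch this way. To 30 min 2 bins of HoxC switched from B to A, against 2.8% of all bins. These counts rest on values near zero: with the chromosome's median as zero they were 3, 0 and 0.

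No Hox bin switched in the other comparisons or directions. Against untreated neutrophils, 0.228% of all bins had gone into B at 15 min, and 0.827% had at 30 min. Between the activated tracks 0.939% of all bins entered A and 1.77% entered B. Compared with progenitors, 3.25% had entered A and 0.615% B at 15 min, and 1.94% A and 0.892% B at 30 min. HoxA and HoxB held no switched bin in any of the 6 comparisons.

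The switched bins of HoxC belong to a run of 5, chr15:102625001-102750000, that starts outside the cluster, on the side of Calcoco1 and Hoxc13. Its mean PC1 was 0.833 in progenitors, -0.137 in untreated neutrophils, then 0.623 at 15 min and 0.956 at 30 min. The 4 switched bins of HoxD are a run of their own, chr2:74550001-74650000, with means of 0.669, -0.331, 0.342 and 0.0582. The HoxC run was in B in the untreated track and in A in the other three, while the HoxD run at 30 min was close to zero.

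In progenitors the flanks of 1 Mb on either side averaged 1.29 and 1.49 for HoxA, 1.17 and 1.08 for HoxB, and 1.45 and 1.05 for HoxC (lower side first). On the higher side HoxC has 24 bins before the chromosome ends, of which 20 were positive in progenitors, and the other flanks have 40. The flanks of HoxD were lower, at 0.795 and 0.703 in progenitors with all bins positive. In untreated neutrophils they averaged -0.121 and 0.000811, with 12 and 13 of 40 bins positive.

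The mean of a cluster minus that of both its flanks together was -0.214 at HoxA, -0.238 at HoxB, -0.208 at HoxC and 0.0820 at HoxD in progenitors. In untreated neutrophils it was -0.653, -0.528, -0.919 and 0.260. At 15 min it was -0.268, -0.204, -0.406 and 0.146, and at 30 min -0.194, -0.124, -0.0170 and 0.116. A shift of a chromosome's zero cancels in this difference, and a change of spread does not. By this difference of means, HoxA, HoxB and HoxC were lower against their surroundings in untreated neutrophils than in the other 3 tracks. HoxD was not. By rank, the untreated track was not alone the lowest at any of HoxA, HoxB and HoxC. Flank bins below the cluster mean (progenitor, untreated, 15 min, 30 min) were 18, 16, 16 and 16 of 80 at HoxA. They were 18, 17, 19 and 11 of 80 at HoxB, and 17, 11, 11 and 17 of 64 at HoxC. For HoxB the low difference of means came from the lower side and the farther part of the higher side. Against the nearest 500 kb of the higher side the difference was -0.0969 in untreated neutrophils and -0.0176 in progenitors.

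**Figure D4:**
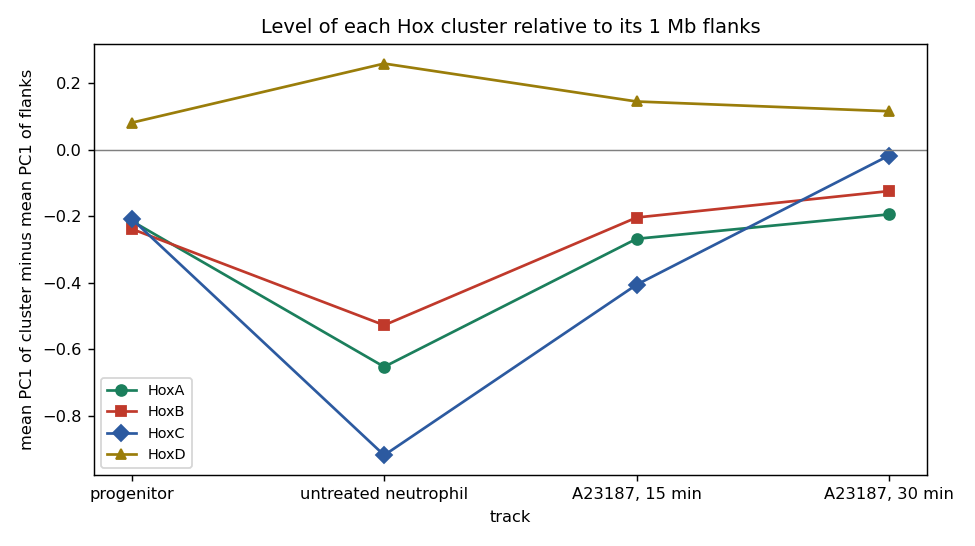
Mean PC1 of each Hox cluster minus the mean PC1 of its flanks of 1 Mb on both sides (vertical axis, in SDs of the chromosome) in the 4 tracks. HoxA, HoxB and HoxC lie furthest below their flanks in untreated neutrophils (-0.653, -0.528 and -0.919), and HoxD lies above its flanks in each track, by 0.0820 to 0.260.

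The low in untreated neutrophils was not confined to the Hox windows. In the flanks of the 4 clusters 100 of 304 bins (32.9%) were lower by at least 0.5 than in progenitors, against 22 of 34 (64.7%) in the clusters. Around HoxA it was 19 of 80 flank bins, around HoxB 9 of 80, around HoxC 8 of 64 and around HoxD 64 of 80. The share of HoxD's bins (62.5%) was below that of its flanks (80%), and in HoxC all 8 bins stood against 12.5% of the flank bins. A low deeper than that of HoxA lay 912.5 kb below its middle, in chr6:51225001-51250000, at 0.903 in progenitors, -0.0298 in untreated neutrophils, then 0.668 at 15 min and 0.819 at 30 min. For HoxB, the low of 0.433 at 687.5 kb below its middle had 0.811 in progenitors, 0.827 at 15 min and 1.10 at 30 min. A high of the HoxA flank at chr6:51475001-51500000 had 1.55 in progenitors and 1.78 in untreated neutrophils, while the high at chr6:51075001-51100000 had 1.11 and 0.636.

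The score also varied more over short distances in the Hox bins than over the genome, which is given as a description. Each bin was set against the average of its neighbours 50 kb away on both sides, and the median distance was 0.225 over the 34 Hox bins of the untreated track and 0.0598 over all bins. It was 0.127 against 0.0581 in progenitors, 0.118 against 0.0508 at 15 min and 0.0715 against 0.0393 at 30 min. The untreated track was thus the most uneven at the Hox bins, and the part of this unevenness in the lows was not tested. The median was not computed over flank bins, which also held lows and highs. The unevenness is therefore not shown to be particular to the Hox bins.

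Around HoxD the flanks hold the longest switched runs. From progenitor to untreated neutrophil, 21 bins on the lower side (chr2:73800001-74325000) changed from a mean of 0.494 to -0.579, and 27 bins on the higher side (chr2:74700001-75375000) from 0.433 to -0.535. At 15 min these runs averaged 0.0615 and 0.0835, and at 30 min -0.398 and -0.472. Of them, 4 bins (chr2:73800001-73900000) and 8 bins (chr2:74125001-74325000) on the lower side, and 4 bins (chr2:74725001-74825000) and 11 bins (chr2:75100001-75375000) on the higher side, were counted as switched from B to A at 15 min. Against progenitors, 19 bins (chr2:73850001-74325000) and 26 bins (chr2:74725001-75375000) were switched to B at 30 min. Between 15 and 30 min, 9 bins (chr2:75100001-75325000) switched from A to B, from 0.167 to -0.523.

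One run of the HoxD flank followed another course. The 7 bins of chr2:73450001-73625000, at the outer edge of the lower flank, had a mean of 0.930 in progenitors, -0.218 in untreated neutrophils, then 0.599 at 15 min and 0.903 at 30 min. They were switched to B in untreated neutrophils and back to A at both times, like the run at HoxC and unlike the runs next to HoxD. The only other flank run of at least 4 switched bins, 4 bins at chr15:101625001-101725000 near HoxC, had 0.272 in progenitors, -0.0736 in untreated neutrophils, then 0.626 at 15 min and 0.181 at 30 min, and switched to A at 15 min.

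The unbroken A stretch that holds the middle bin differed in length between tracks, and at HoxA, HoxB and HoxC not in the order of the means. HoxA lay in 3075 kb of A in untreated neutrophils (chr6:51250001-54325000), in 7775 kb in progenitors and at 15 min, where the lower end is a gap in the values, and in 4375 kb at 30 min. For HoxB it was 5375 kb in progenitors, 4375 kb in untreated neutrophils (chr11:94775001-99150000), 5425 kb at 15 min and 5375 kb at 30 min. HoxC had 7450 kb of A in progenitors, 650 kb in untreated neutrophils (chr15:102750001-103400000), 7600 kb at 15 min and 1825 kb at 30 min. The middle bin of HoxD was in 8000 kb of A in progenitors, in 100 kb of B in untreated neutrophils, in 700 kb of A at 15 min (chr2:74125001-74825000), and alone in B at 30 min, with -0.0502. A single bin near zero decides such a length, so it is coarser than the means.

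The authors' deposited lists of domains in untreated neutrophils place the clusters in the same way. HoxA lies whole in a positive domain of 3075 kb with a deposited score of 1.26, and HoxB in one of 4375 kb with 1.02. HoxC is split between a negative domain of 125 kb (score -0.137, 2 of its bins) and a positive domain of 650 kb (1.05, 6 bins). HoxD is split evenly, between a positive domain of 225 kb (0.845, 4 bins) and a negative one of 100 kb (-0.331, 4 bins). In HoxD the positive part is on the side of Evx2 and Hoxd13, and in HoxC the negative part is on the side of Calcoco1 and Hoxc13. The negative parts thus lie toward opposite sides of their windows. Since no gene was placed in a bin, where they lie in the gene order was not tested.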

How the data were processed

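PC1 scores of in situ Hi-C were analysed for 4 tracks. The scores are as deposited by the authors, made on the genome build mm9 with tools that include HiC-Pro, Bowtie2 and HOMER, per the submitters' processing notes. For these tools no version or setting is given in the sources used here. Bins are spaced at 25 kb and, per the file titles, cover 50 kb, so neighbours share reads. The activated libraries were cut with MboI per the labels' protocols. Domain scores and lengths in the authors' deposited lists were used as given.

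Kept were the bins of 20 chromosomes that hold a value other than 0 in each track, and chromosome Y was left out. Means, SDs over bins, changes between the 6 pairs of tracks, windows of equal length and switched bins were computed with Python 3.11.15, numpy 2.4.6 and pandas 2.3.3. The switch rule and the window means were tested on simulated data. Coordinates are 1-based mm9 unless GRCm38.p6 is named. Read depth is unknown, and no test was made with 1 track a group.

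Named singly are the lowest and highest bins of a cluster, bins where the sign changes, switched runs of at least 4 bins in the flanks and, per cluster, the 3 deposited domains nearest in their 4 means. Lows and highs (the lowest or highest of 9 bins centred on a bin) in the flanks, bins with a change of at least 0.5 and bins with a progenitor PC1 of at least 0.5 were added after the values were seen. The clusters and lists were chosen with earlier results of these data known. Alternatives were another scale, another zero, the median, other windows and flanks, and other switch limits. The full genotype label and 1 gene are not reported here.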

Additional observations from a re-analysis of the deposited data

Results flagged for a closer look

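HoxD differed between the activated tracks in the direction of its change from untreated neutrophils. The mean PC1 of the cluster changed by 0.37 at 15 min and by -0.01 at 30 min, and that of its flank of higher coordinates by 0.42 and -0.02. Its flank of lower coordinates was higher at both times, by 0.556 and 0.278. The difference between the times was not tested, since each time has 1 track, and time and replicate number cannot be told apart. The changes at 30 min are close to zero, and at the cluster the sign was upward with the window 1 bin narrower at each end (0.0514) or with the median over the bins (0.149).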

How the results depend on the processing

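Of 120 recomputed changes of cluster means, 16 moved by more than the SD over the bins, 1 that exceeded its SD turned its sign and the rest moved by less, and of 80 recomputed cluster means 69 moved by less. Some values smaller than their SD also turned: the HoxD change from untreated to 30 min, to 0.149 with the median over bins and 0.0514 with the narrower window, the HoxA change from progenitor to 30 min, to 0.00015 with the wider window, and the untreated HoxD mean, to -0.0647 with the median over bins. With the chromosome's median as zero the means were 1.48, 0.979 and 1.45 for HoxA in progenitors, untreated neutrophils and at 30 min, 1.01 and 1.2 for HoxB in progenitors and at 30 min, 1.43, 0.612 and 1.42 for HoxC in progenitors, untreated neutrophils and at 30 min, and 0.448 for HoxD at 30 min. With the tracks quantile-normalized to the untreated track, HoxB at 30 min was 0.978 and HoxC at 15 min 0.618. The median as zero gave changes of 0.112 (HoxA) and 0.266 (HoxC) from untreated to 15 min, and of 0.36, 0.378, 0.543 and -0.261 (HoxA to HoxD) from 15 to 30 min. From progenitor to 15 min it gave -0.386, -0.187, -0.554 and -0.392 (HoxA to HoxD), and from progenitor to 30 min it turned the sign at HoxC, to -0.0117. Quantile normalization gave 0.258 (HoxA) and 0.642 (HoxC) from 15 to 30 min, -0.342, -0.485 and -0.343 (HoxA, HoxC, HoxD) from progenitor to 15 min, and -0.0844 (HoxA) from progenitor to 30 min. By construction a shift of the zero moves each bin of a track alike. Of 60 recomputed counts of switched bins, 51 stayed within 1.5 times. The count from A to B in untreated neutrophils was 3 with the median as zero and 2 with a size limit of 1. From B to A at 15 min it was 1 with quantile normalization and 0 with the median as zero or a size limit of 1, and at 30 min it was 0 with the median as zero and 5 with a size limit of 0.25. From progenitor to 30 min, A to B, it was 3 with quantile normalization and 1 where a single bin sufficed. Settings chosen after seeing the data gave 3 bins higher by at least 0.5 at 15 min with quantile normalization, 3 with the median as zero, and 26 at a limit of 0.3. Against flanks of 500 kb on the higher side, HoxB lay at -0.0176 in progenitors, -0.0969 in untreated neutrophils and -0.000973 at 30 min, HoxC at -0.464 at 15 min and, with the sign turned, at -0.289 in progenitors and -0.119 at 30 min, and HoxD at 0.501 at 15 min and 0.617 at 30 min, with 0.43 on the lower side. Medians over bins on the higher side gave -0.361, -0.849 and -0.354 for HoxB (progenitor, untreated, 15 min), -1.12 and -0.496 for HoxC (untreated, 15 min) and, with the sign turned, -0.253 and -0.113 (progenitor, 30 min), and 0.518 for HoxD at 30 min. On the lower side they gave -0.439 for HoxB at 15 min, -0.583 and -0.657 for HoxC in progenitors and at 15 min, and -0.014, with the sign turned, for HoxD in progenitors. The cause of these moves was not tested beyond this. No paired analysis was possible because each group has 1 track, so no replicate could be left out either. Read depth limits the values to an unknown extent.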

Other observations

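Other regions of the genome with the course of the Hox clusters over the 4 tracks were looked up among the authors' deposited domains of at least 8 bins, leaving out those within 1 Mb of the cluster (2362 domains for HoxA and HoxB, 2361 for HoxC and 2359 for HoxD). Likeness was the root mean square distance of the means in the 4 tracks. For HoxA the nearest was a positive domain of 250 kb, chr14:24125001-24375000, at a distance of 0.0726, with means of 1.06 in progenitors, 0.611 in untreated neutrophils, then 1.03 at 15 min and 1.10 at 30 min. The next were chrX:131850001-132900000 (0.114) and chr6:34050001-34500000 (0.117).

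HoxB had nearer counterparts than the other clusters. These were chr19:56400001-56675000 at 0.0643, chr6:33150001-33900000 at 0.0687 and chr6:84500001-84700000 at 0.0897, and the first had means of 0.963, 0.524, 0.793 and 1.01. HoxC was nearest to chr10:85725001-85950000, at 0.125, with means of 1.24, 0.19, 0.928 and 1.07, then to chr16:35250001-35450000 (0.173) and again chr6:34050001-34500000 (0.174). HoxD was nearest to chr12:115150001-115350000, at 0.126, with means of 0.843, 0.156, 0.383 and 0.0245. Its next were chr2:134325001-134625000 (0.183) and chr6:78950001-79350000 (0.185).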
